A study of Mus musculus with 14 samples.

Results

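The C-type lectin receptors of myeloid cells described here are 6 mouse genes, Clec4e, Clec4d, Clec4n, Clec5a, Clec4a2 and Clec12a, of the 17178 gene symbols with a probe on the array. Members were chosen by gene symbol alone, through the transcript accession that the scanner files give for each non-control probe. Of the 6 genes, 5 passed the filter on dim and unusable probes and were tested, while Clec12a was not well above background on any array. Each gene had 1 probe except Clec5a and Clec4a2, with 3 probes each.

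RNA was measured on 14 Agilent arrays of 1 colour in 4 groups. Traumatic brain injury (TBI) gave 4 samples of Arg1+ and 4 of Arg1- macrophages from the brain and 3 of blood monocytes, and normal mice gave 3 of blood monocytes. All mice were YARG males of 12 to 16 weeks, a strain in which a fluorescent reporter reads out the arginase-1 gene, Arg1, so the Arg1 split of the brain cells is a split by reporter. TBI was inflicted with a pneumatic piston on the cortex under a craniectomy (controlled cortical impact), and brain cells and post-TBI blood were taken on day 1. The normal mice were untreated, and no sham-operated group was analysed here. Brain cells were released by DNase and collagenase and banded on Percoll, whereas blood cells were banded on ficoll, so tissue and preparation cannot be told apart in any comparison of brain with blood. The labels do not say whether replicates are separate animals or pools, so p-values measure only the spread between these samples, which may be technical.

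Levels are log2 ratios of a spot's signal to the 75th percentile of its array, which ran from 119 to 418 intensity units, and the lowest possible value is -4.32. Of the probes on an array, 50.4% to 68.7% were well above background. The arrays lay on 4 slides, of which 3 held 1 array of each group and the fourth held Arg1+ replicate 2 and Arg1- replicate 3. The genes of the sort and the macrophage lineage, Ptprc (CD45), Itgam (CD11b), Adgre1 (F4/80), Csf1r, Cd14, Lyz2 and Fcgr1, were above background on all 14 arrays, and Arg1 RNA was higher in Arg1+ than in Arg1- cells by 3.25, a check of the sort. Arrays of 1 group correlated across genes at Pearson r of at least 0.937, and genes are not independent replicates.

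C-type lectin receptors are surface proteins that bind sugars, glycolipids or proteins of microbes and of damaged cells. Clec4e (Mincle), Clec4d (MCL) and Clec4n (Dectin-2) signal through the FcR gamma chain, Fcer1g, and Clec5a (MDL-1) through the adaptor Tyrobp (DAP12). These adaptors recruit the kinase Syk, and the FcR gamma branch then reaches the adaptor Card9 and the genes of cytokines and chemokines. Clec4a2 (a DCIR) and Clec12a (MICL) carry an inhibitory motif that recruits phosphatases. Mincle is known to bind Sap130, a nuclear protein that dying cells release, and mycobacterial glycolipids, which MCL binds as well. Dectin-2 is known for fungal mannans.

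All 6 genes lie on chromosome 6, and Clec4n, Clec4d and Clec4e are consecutive protein-coding genes in the RefSeq annotation of GRCm38.p6. The 250 bases before the annotated start are shown for the 3 receptors that differed most between groups and have an entry. Those of Clec4a2, which was lower in brain cells than in post-TBI monocytes, are shown as well. Capitals mark the letters GAGGAA, the core that the myeloid factor PU.1 prefers, and TTGCNNAA, a C/EBP element, searched on both strands. Among 27025 RefSeq promoters of the same length, 23.1% held GAGGAA, 9.55% held TTGCNNAA and 2.06% held both. The sequences are from RefSeq on GRCm38.p6, written 5′ to 3′ on the strand of the gene, at chr6:123289872-123290121 (minus strand, Clec4e), chr6:123261857-123262106 (plus, Clec4d), chr6:40585806-40586055 (minus, Clec5a) and chr6:123122440-123122689 (plus, Clec4a2).
Clec4e: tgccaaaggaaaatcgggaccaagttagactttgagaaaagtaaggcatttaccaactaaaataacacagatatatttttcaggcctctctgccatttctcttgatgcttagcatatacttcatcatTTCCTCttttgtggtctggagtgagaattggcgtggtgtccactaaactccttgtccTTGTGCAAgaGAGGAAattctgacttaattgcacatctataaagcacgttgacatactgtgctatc
Clec4d: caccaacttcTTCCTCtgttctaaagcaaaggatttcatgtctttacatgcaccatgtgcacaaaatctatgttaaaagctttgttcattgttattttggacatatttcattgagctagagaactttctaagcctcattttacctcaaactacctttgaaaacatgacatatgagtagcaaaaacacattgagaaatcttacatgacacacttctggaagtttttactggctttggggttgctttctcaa
Clec5a: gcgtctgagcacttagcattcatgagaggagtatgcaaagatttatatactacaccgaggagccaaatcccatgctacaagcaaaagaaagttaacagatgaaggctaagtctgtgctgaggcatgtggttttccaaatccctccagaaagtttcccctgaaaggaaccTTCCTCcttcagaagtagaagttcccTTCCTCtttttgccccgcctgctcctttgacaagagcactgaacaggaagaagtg
Clec4a2: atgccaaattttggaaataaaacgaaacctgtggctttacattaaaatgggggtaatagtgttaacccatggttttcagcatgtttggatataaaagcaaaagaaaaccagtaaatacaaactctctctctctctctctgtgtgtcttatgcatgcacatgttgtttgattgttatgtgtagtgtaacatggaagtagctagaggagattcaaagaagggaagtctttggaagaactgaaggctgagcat
The Clec4e window held GAGGAA at 2 places and TTGCNNAA at 1, with no overlap between them. Those of Clec4d and Clec5a held GAGGAA only, at 1 and 2 places, and that of Clec4a2 held neither. The Clec12a window, not printed here, held both motifs, although the Clec12a probe was not above background on any array. A match describes the letters and is not a shown binding site.

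Clec4n showed the widest range of the receptors. Its levels on the Arg1+ arrays were 4.85, 5.20, 4.70 and 4.60, and on the Arg1- arrays 4.23, 4.05, 4.00 and 3.94. Post-TBI monocytes gave -0.13, -0.83 and -1.49, and normal monocytes -1.16, -1.49 and -1.88. Every brain array was thus far above every blood array, Arg1+ lay above Arg1- without overlap, and the blood groups overlapped. The level exceeded that of post-TBI monocytes 50.1-fold in Arg1+ cells (log2 difference 5.65 ± 0.26 SE, n = 4 and 3, limma adjusted p = 4.29e-10) and 29.2-fold in Arg1- cells (4.87 ± 0.26, adjusted p = 4.2e-09). Only 0.187% of the 21972 tested genes, with unnamed probes counted as genes, had a larger difference between Arg1+ cells and post-TBI monocytes. Neighbouring groups in the order, Arg1+ over Arg1- (0.78 ± 0.24, adjusted p = 0.0849) and post-TBI over normal blood (0.70 ± 0.28, adjusted p = 0.661), did not pass the test.

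Clec4d, whose product pairs with that of Clec4e, had the same order of groups. Scanner software flagged 4 of its 8 brain spots as uneven or outlying, which removed Arg1+ replicates 2 and 4 and Arg1- replicates 1 and 3. The usable Arg1+ levels were 4.64 and 4.82 and the usable Arg1- levels 4.10 and 4.01. Blood gave 0.96, 0.81 and 0.56 after TBI and -0.65, -0.08 and -0.86 in normal mice. No group overlapped another, and the flagged spots (5.33 and 4.84 in Arg1+, 4.31 and 4.14 in Arg1-) fell on the same sides. Arg1+ cells exceeded post-TBI monocytes by 3.96 ± 0.24 (15.5-fold, n = 2 and 3 usable spots, limma adjusted p = 2.38e-07) and Arg1- cells by 3.28 ± 0.24 (9.70-fold, adjusted p = 1.87e-06).

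Clec4e, the Sap130 receptor, spanned less. It was at 0.35, 0.25, 0.14 and -0.08 in Arg1+ cells and at 0.75, 0.13, 0.45 and 0.52 in Arg1- cells. Its level was -0.66, -0.52 and -0.43 after TBI in blood and -1.77, -1.56 and -1.87 in normal blood. The brain groups overlapped each other, and each blood group stood apart from all other arrays. Against post-TBI monocytes the brain level was higher by 0.70 ± 0.19 in Arg1+ cells (1.63-fold, n = 4 and 3, limma adjusted p = 0.00723) and by 1.00 ± 0.19 in Arg1- cells (2.00-fold, adjusted p = 0.000734). Against normal monocytes the differences were 1.90 and 2.20. Sap130 itself passed the test in none of the main comparisons (0.25, adjusted p = 0.324, between Arg1+ cells and post-TBI monocytes).

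Clec5a, the receptor that signals through Tyrobp, was higher in Arg1- than in Arg1+ arrays on each probe. The probe that stands for the gene gave 0.89, 1.14, 0.56 and 0.49 in Arg1+ cells and 1.54, 1.19, 1.69 and 1.33 in Arg1- cells. Blood levels were -1.29, -1.93 and -2.77 after TBI and -2.25, -1.78 and -2.55 in normal mice. The brain groups did not overlap, by a narrow gap between 1.14 and 1.19, and the blood groups overlapped. Post-TBI monocytes lay below Arg1+ cells by 2.77 ± 0.30 (6.81-fold, n = 4 and 3, limma adjusted p = 3.78e-06) and below Arg1- cells by 3.43 ± 0.30 (10.8-fold, adjusted p = 7.15e-07). The probe A_52_P218058 gave 2.20 and 2.73 for those differences, and A_52_P142888 was above background on the 8 brain arrays and on no blood array.

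Between brain and post-TBI blood, Clec4a2, the inhibitory receptor, ran the other way and over a small range. Arg1+ levels were 3.41, 3.69, 3.80 and 3.49, and the usable Arg1- levels 3.52, 3.73 and 4.08. Post-TBI monocytes gave 4.33, 4.32 and 4.33, above all brain arrays, and the usable normal arrays gave 3.87 and 4.25. Arg1- replicate 3 and normal replicate 2 were flagged and dropped. The level in post-TBI monocytes exceeded that in Arg1+ cells 1.66-fold (brain minus blood -0.73 ± 0.18, n = 4 and 3, limma adjusted p = 0.00468) and that in Arg1- cells 1.47-fold (-0.55 ± 0.19, n = 3 and 3, adjusted p = 0.0372). The Arg1- call was lost when slide was fitted as a block (adjusted p = 0.0627) and on the probe A_51_P444092 (-0.26, adjusted p = 0.266), which gave -0.55 (adjusted p = 0.0162) for Arg1+ cells. The call in Arg1- cells was also lost without Arg1- replicate 1 or 2 or any 1 of the post-TBI arrays (adjusted p from 0.0569 to 0.148). The third probe, A_52_P356106, was above background on 2 arrays and was not used. Probes of Clec4a2 may take up RNA of its close paralogs such as Clec4a1 and Clec4a3, which was not tested.

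The only probe for Clec12a was at the floor of -4.32 and not well above background on all 14 arrays, so no level or difference is given. In the authors' deposited table the same probe was at 4.97 to 5.39 log2 units, below every array's median of 6.16 to 6.19.

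**Figure D1:**
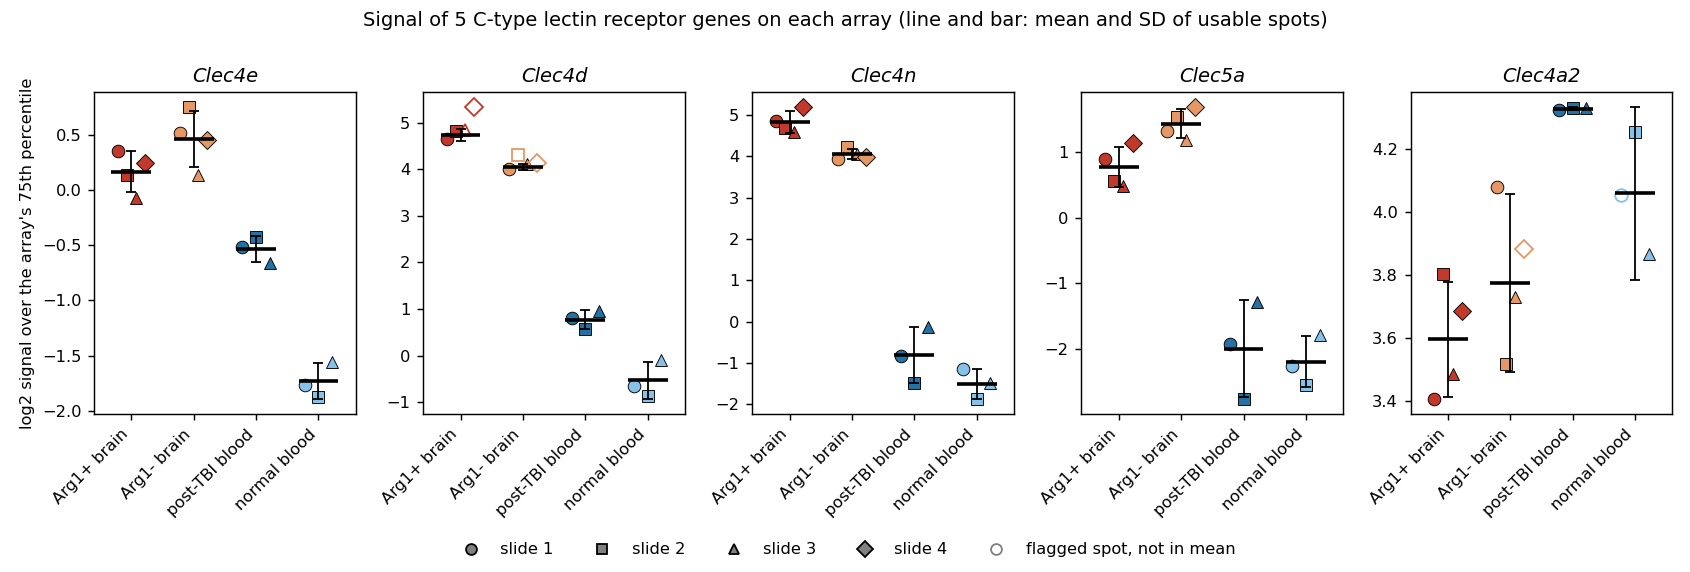
Level of 5 receptor genes on each array, as the log2 ratio of the spot signal to the array's 75th percentile (vertical axis; scales differ between panels), by group. Filled symbols are usable spots, their shape the slide, open symbols flagged spots left out of the mean, and lines and bars the mean and SD. Clec4d, Clec4n, Clec4e and Clec5a are higher on every brain array than on every blood array, while for Clec4a2 the post-TBI arrays (4.32 to 4.33) lie above all brain arrays.

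The comparison of brain macrophages with post-TBI monocytes asks how these receptors differ between cells in the injured brain and monocytes in blood. Of the 5 tested receptors, 4 were higher and Clec4a2 was lower in Arg1+ cells, in a comparison in which 39.9% of all tested genes were called, 19.9% higher and 20% lower. In Arg1- cells 4 were again higher and Clec4a2 lower, where 33.4% of genes were called, 17% higher and 16.4% lower. Their groups of arrays did not overlap in either comparison, beside 39.7% and 37% of all tested genes without overlap. For Clec4d this rests on 2 usable arrays in each brain group. Both comparisons share the post-TBI arrays. Against normal monocytes, 4 receptors were higher in Arg1+ cells (40.5% of genes called, 19.7% higher and 20.7% lower) and the same number in Arg1- cells (32.3% called, 16.2% higher and 16.1% lower), and Clec4a2 was not called in either. Clec4a2 in Arg1+ cells against normal monocytes (-0.46, limma adjusted p = 0.0815) was called in 5 alternatives, with differences from -0.62 to -0.46. On its other usable probe, A_51_P444092, the same difference was -0.008 (limma adjusted p = 0.98). On each of the 3 shared slides with usable spots, Clec4e, Clec4n and Clec5a were higher and Clec4a2 lower in brain cells, and Clec4d was higher on the 2 slides where it could be read.

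These are bulk samples, so fewer cells of a type and less RNA per cell cannot be told apart. Markers of microglia, the resident macrophages of the brain, moved with the brain groups. Summed over 9 genes, their level as a ratio to the 75th percentile was 52.8 to 84.5 in Arg1+ cells, 42.3 to 57.9 in Arg1- cells, 11.5 to 13.1 in post-TBI monocytes and 10.3 to 11.8 in normal monocytes. Of the 9, 8 were higher in Arg1+ cells and 7 in Arg1- cells than in post-TBI monocytes. The defining gene Tmem119 was above background on all 14 arrays, and Sall1 on all 8 brain and on 3 of 6 blood arrays. Markers of blood monocyte subsets moved the other way. The 7 genes of patrolling Ly6C-low monocytes summed to 10.8 to 15.4 in Arg1+ cells, 28.8 to 32.2 in Arg1- cells and 182 to 209 in post-TBI monocytes, with 7 lower in each brain group. The 5 genes of inflammatory Ly6C-high monocytes summed to 39.99 to 59.8, 79.2 to 97.3 and 210 to 220 in the same order, with 4 lower in Arg1+ and 3 in Arg1- cells. The part of these cells in the receptor differences was not tested.

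**Figure D2:**
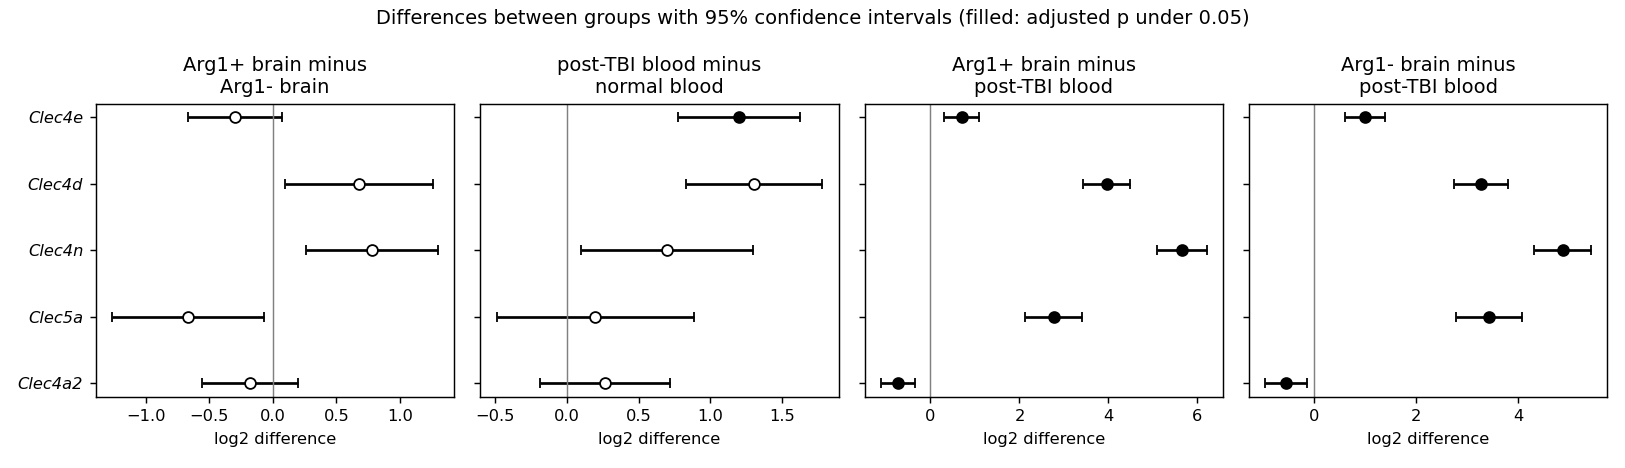
Fitted log2 difference of each receptor gene in the 4 main comparisons, with 95% confidence intervals (horizontal axis; scales differ between panels). Filled points passed an adjusted p of 0.05. In both brain panels 4 receptors lie right of 0 and Clec4a2 left of it, whereas Clec4e is the only filled point among post-TBI minus normal blood and none is filled for Arg1+ minus Arg1-.

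Arg1+ and Arg1- brain macrophages were compared to ask whether the receptors part the subsets that the reporter defines. None of the 5 receptors was called by limma, in a comparison with 5.04% of all genes called, 2.14% higher and 2.9% lower, although Clec4d, Clec4n and Clec5a reached an unadjusted p of 0.0259, 0.00604 and 0.031. Clec4n (1.72-fold, 95% interval 1.20 to 2.46) and Clec4d (1.60-fold, 1.07 to 2.39) had the higher level in Arg1+ cells. Clec5a had the higher level in Arg1- cells, 1.59-fold (1.05 to 2.40, adjusted p = 0.219), and Clec4e 1.23-fold (0.953 to 1.59, adjusted p = 0.422). Clec4a2 differed by -0.18 ± 0.18 with overlapping arrays. The arrays did not overlap for 3 of 5 receptors, beside 14.9% of all genes. Among the 3, Clec4d had only 2 usable arrays in each group, where a lack of overlap comes more easily.

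With slide as a block Clec4d was called (0.91 ± 0.19, limma adjusted p = 0.0209), and it was also called with its flagged spots kept (0.77 ± 0.19, adjusted p = 0.0251), so that 1 of 5 receptors passed in each of these fits. The slide block called 6.84% of all genes, and keeping flagged spots called 5.32%. In 9 other processing alternatives, and with any 1 array left out, Clec4d was not called. Its difference over the processing alternatives ran from 0.22 to 0.91 (limma adjusted p from 0.0209 to 0.822). Clec4n stayed at adjusted p = 0.0721 with the slide block, and was called without post-TBI replicate 1 (0.0299) or 4 (0.0222), which enter only through the shared spread. Within slides, the Arg1+ array was above the Arg1- array for Clec4n on 4 of 4 slides, by 0.46 to 1.20, and below it for Clec5a on 4 of 4, by -0.98 to -0.43. Clec4e was lower in Arg1+ on 4 of 4 slides as well, by -0.61 to -0.16. Clec4d had 1 slide with both spots usable, at 0.64. All 3 Clec5a probes were lower in Arg1+ cells on 4 of 4 slides, with adjusted p from 0.125 to 0.236.

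Markers of other leukocytes differed between the same groups. The summed level of 14 neutrophil genes was 11.1 to 22.2 in Arg1+ and 36.2 to 151 in Arg1- cells, with 1 gene higher and 9 lower in Arg1+ cells. For 10 dendritic cell genes it was 5.22 to 17.6 and 66.8 to 105, with 8 lower. The monocyte sums given above were lower in Arg1+ than in Arg1- cells too, with 5 of 7 patrolling and 2 of 5 inflammatory markers called lower. Neutrophils are known to carry Clec4d, Clec4e and Clec5a, and the antibody panel included Ly6G, a neutrophil marker whose gene had no named probe. How Ly6G was used in the sort is not given in the sources used here. The part of these cells in the receptor differences was not tested.

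**Figure D3:**
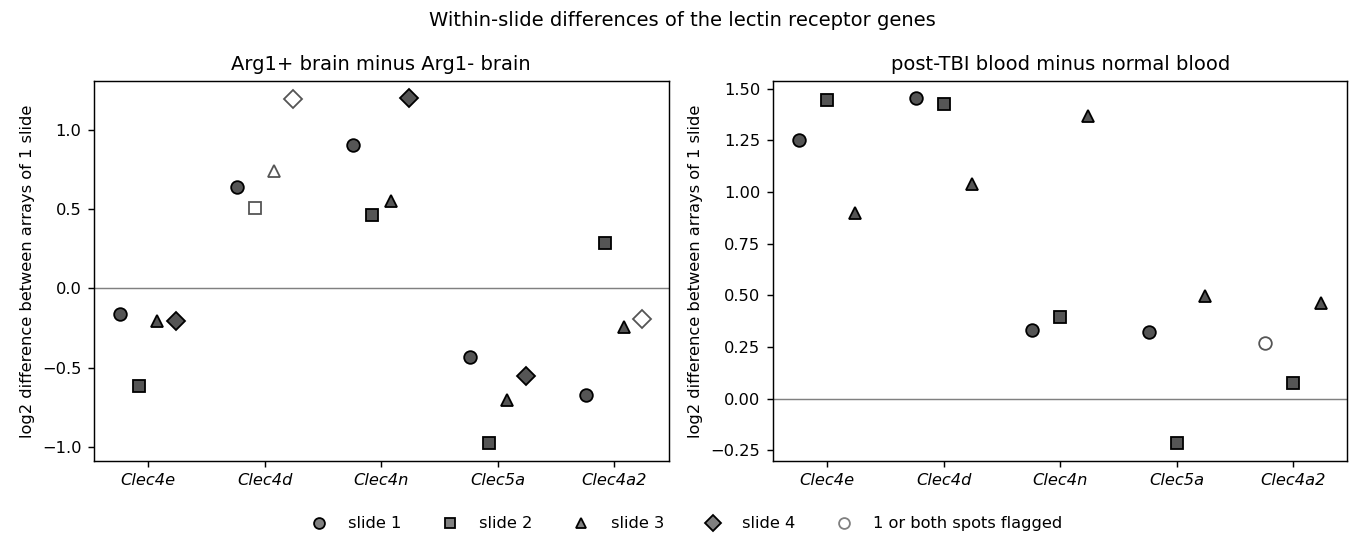
Difference between 2 arrays of the same slide for each receptor gene, in log2 units (vertical axis), for Arg1+ minus Arg1- brain (left) and post-TBI minus normal blood (right). Symbol shape gives the slide, and open symbols rest on at least 1 flagged spot. Clec4n lies above 0 and Clec4e and Clec5a below 0 on all 4 slides at left, and Clec4e, Clec4d and Clec4n lie above 0 on all 3 slides at right.

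Blood monocytes 1 day after TBI were compared with those of normal mice to ask whether the receptors differ in blood after injury. Clec4e was higher after TBI, 2.29-fold (95% interval 1.71 to 3.08, log2 difference 1.20 ± 0.20, n = 3 and 3, limma adjusted p = 0.0268). It was the only receptor of 5 that was called, where 0.15% of all tested genes were called, 0.109% higher and 0.041% lower. Clec4d was 2.47-fold above normal (1.78 to 3.43), by 1.31 ± 0.21, with an adjusted p of 0.0516 that missed the threshold. Post-TBI and normal arrays did not overlap for Clec4e, Clec4d and Clec4a2, beside 9.26% of all genes. Clec4a2 had only 2 usable normal arrays, where a lack of overlap comes more easily.

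On each of 3 slides the post-TBI array was above the normal array, by 0.90 to 1.45 for Clec4e, by 1.04 to 1.45 for Clec4d and by 0.33 to 1.37 for Clec4n. Slide as a block gave Clec4e an adjusted p of 0.037 and Clec4d one of 0.0403, so that 2 receptors were called, in a fit that called 0.146% of all genes. With flagged spots kept Clec4d reached 0.0247, in a fit that called 0.153% of all genes. The Clec4e call was lost with normexp background correction and quantile normalization (adjusted p = 0.0522) and when certain arrays were left out. Adjusted p was 0.13 without post-TBI replicate 3, 0.128 without normal replicate 2, 0.1 without normal replicate 4 and 0.0843 without post-TBI replicate 4. It was also lost without Arg1+ replicate 3 (0.0528) or Arg1- replicates 3 (0.0534) or 4 (0.0555), which enter only through the shared spread. Clec4d was called without normal replicate 3 (adjusted p = 0.0138). The Clec4e difference itself stayed between 1.13 and 1.29 when any 1 array was left out. Clec4n (0.70 ± 0.28, adjusted p = 0.661), Clec5a (0.20 ± 0.32, adjusted p = 1) and Clec4a2 (0.27 ± 0.21, adjusted p = 0.965) did not pass the limma test, and without post-TBI replicate 1 the Clec5a difference turned to -0.15.

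The 14 neutrophil markers summed to 19.5, 27.5 and 103 in post-TBI replicates 1, 3 and 4 and to 31.1 to 35.8 in normal monocytes, and none was called. Of the 5 markers of inflammatory Ly6C-high monocytes, Vcan was higher after TBI (1.96 ± 0.29, limma adjusted p = 0.0134) and none was lower, and their sums were 210 to 220 after TBI and 147 to 247 in normal mice. The 7 markers of patrolling Ly6C-low monocytes had no called gene. The part of neutrophils and monocyte subsets in the Clec4e difference was not tested.

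Most tested genes on the list of adaptors and kinases were lower in brain than in blood, whereas most tested receptors were higher. Tyrobp was not among the lower genes, nor were Fcer1g and Syk where they could be read. Of 16 listed genes 15 had a probe and 9 were tested. Tyrobp, the adaptor of Clec5a, was at 7.56 in Arg1+ and 7.41 in Arg1- cells and passed the test in no main comparison. Between Arg1+ cells and post-TBI monocytes 2 genes rose and 6 fell, with a list median of -0.86 beside -0.03 over all genes. In Arg1- cells 2 rose and 6 fell (median -0.57 beside -0.02). Over all tested genes 19.9% were called higher and 20% lower in Arg1+ cells, and 17% higher and 16.4% lower in Arg1- cells. The linker Blnk rose by 3.74 and 2.97 in the respective brain groups and the exchange factor Vav1 by 0.93 and 0.88. Blnk was above background on 1 of 3 post-TBI arrays, so the floor limits its values. The Src-family kinase Fgr fell by 2.32 and 1.38 and the linker Lcp2 (SLP-76) by 1.85 and 1.83. Fgr was also lower in Arg1+ than in Arg1- cells (-0.93 ± 0.17, limma adjusted p = 0.0048). It was the 1 called gene of this list there, beside 5.04% of all genes, and none was called between the blood groups.

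Of the listed adaptors and kinases, 6 were left out because too few of their spots were usable, although they were above background on all 14 arrays, among them Fcer1g, Syk, Plcg2, Prkcd and Lyn. Flags fell on bright spots, at 7.82% of the brightest 10% of probes and 0.00763% of the dimmer 50%. With flagged spots kept, a setting chosen after seeing the data, the FcR gamma chain gene Fcer1g differed by -0.20 ± 0.26 between Arg1+ cells and post-TBI monocytes (limma adjusted p = 0.586) and Syk by 0.07 ± 0.21 (adjusted p = 0.851). Of the 15 genes then tested 2 rose and 10 fell in Arg1+ cells, where 40.2% of all genes were called, and 2 rose and 8 fell in Arg1- cells, where 33.6% were. In that fit the phospholipase Plcg2 (-1.07) was among those lower in Arg1+ cells.

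All 3 listed phosphatases that inhibitory lectins recruit were tested. In Arg1+ cells against post-TBI monocytes 2 were called, beside 39.9% of all tested genes. Arg1+ cells had more Inpp5d (0.38 ± 0.13, limma adjusted p = 0.0327) and less Ptpn6 (-0.86 ± 0.31, adjusted p = 0.0394). None was called in the other main comparisons. Of the factors that act on myeloid lectin genes, the C/EBP family member Cebpb was lower in brain than in post-TBI blood, by -1.27 in Arg1+ cells (adjusted p = 0.00149) and -0.95 in Arg1- cells (adjusted p = 0.0133). Spi1, the gene of PU.1, differed by -0.08 and -0.04 and was not called.

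The tested mediators that the Syk and Card9 pathway is known to induce were mostly higher in brain cells, as were 4 of the receptors. Of 13 listed genes 9 were tested. Il6, Csf2 and Csf3 were above background on 0 arrays and Il10 on 2, so they were left out as dim. Of the 9, 6 were higher in Arg1+ cells (list median 3.53) and 8 in Arg1- cells (2.99) than in post-TBI monocytes, none lower. Cxcl1 and Ptgs2 were above background on every brain array but only 1 blood array each. Il23a was so on 2 Arg1+, 3 Arg1- and 1 normal array. These genes thus passed the filter mainly through the brain groups, which bears on the counts and medians. Over all tested genes 19.9% were called higher in Arg1+ cells (median -0.03) and 17% in Arg1- cells (median -0.02). The neutrophil-attracting chemokines Cxcl1 and Cxcl2 rose by 5.65 and 4.62 in Arg1+ cells and by 3.57 and 3.50 in Arg1- cells. Cxcl1 was above background on 1 of 3 post-TBI arrays, so the floor limits its differences. The chemokine Ccl4 and the cytokine Tnf rose by 3.91 and 3.58 in Arg1+ cells. Many other pathways induce these genes too. Between the brain groups Cxcl1 was higher (2.08 ± 0.49, limma adjusted p = 0.0225) and Il1b lower (-1.27 ± 0.29, adjusted p = 0.0177) in Arg1+ cells. In post-TBI against normal blood Cxcl2 was called (2.58 ± 0.40, adjusted p = 0.0192, above background on 3 of 3 and 1 of 3 arrays), beside Clec4e.

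**Figure D4:**
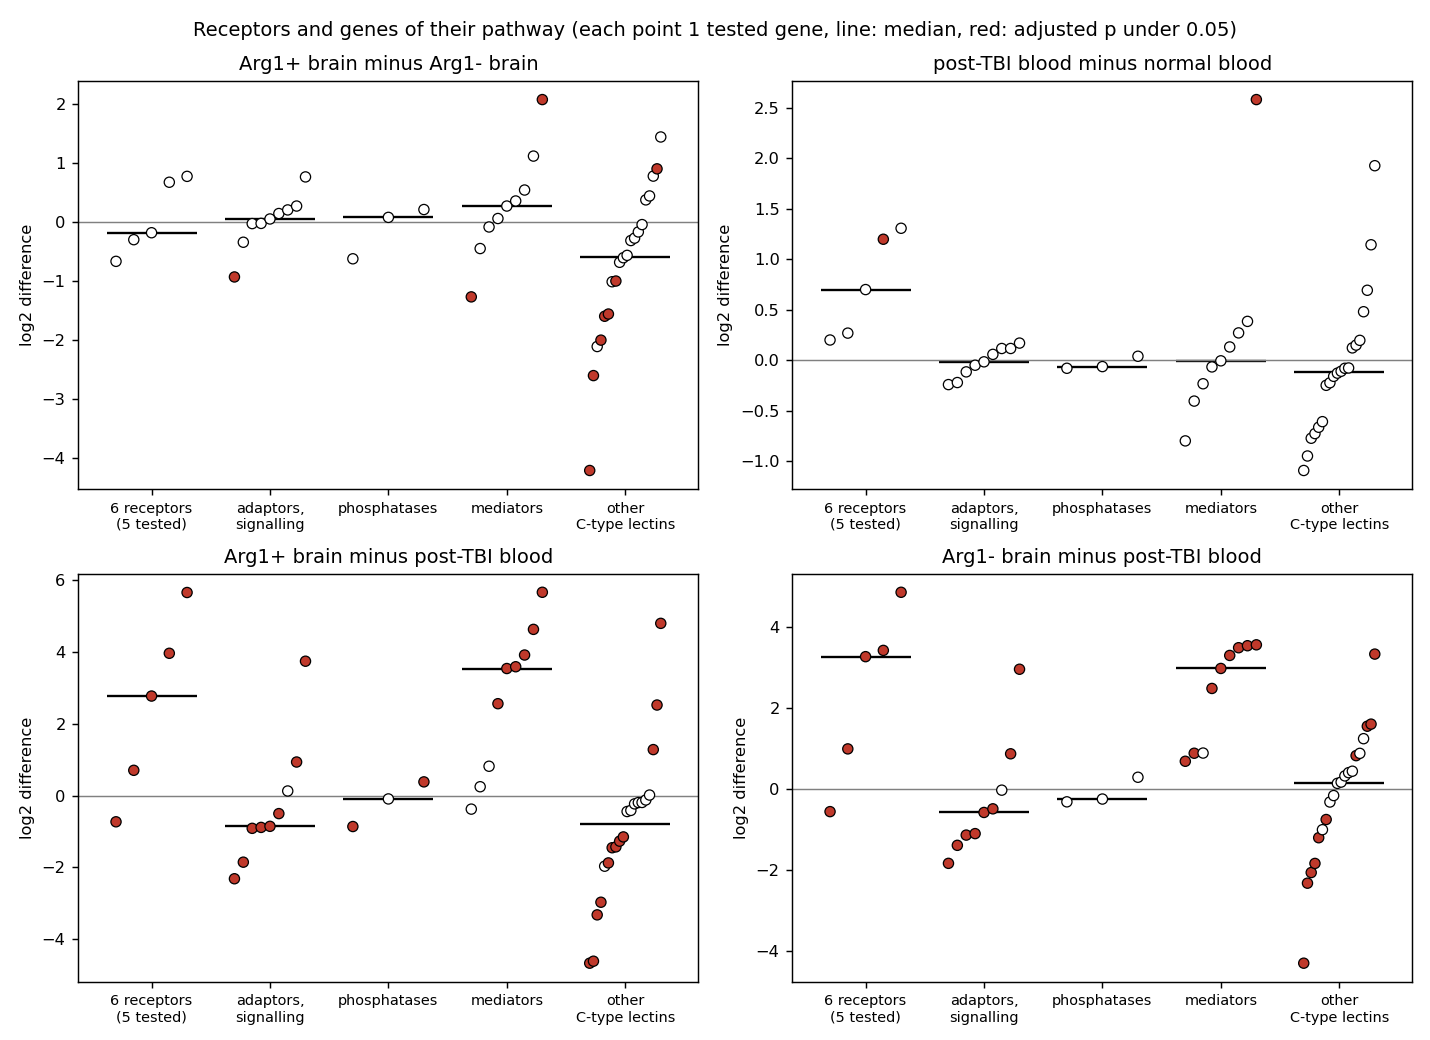
Fitted log2 difference (vertical axis; scales differ) of each tested gene of the receptors and 4 pathway lists, in the 4 main comparisons. Each point is 1 gene, red where the adjusted p is under 0.05, and lines are list medians. Against post-TBI blood the medians are 2.77 and 3.28 for the receptors and 3.53 and 2.99 for the mediators, while those of the adaptors are -0.86 and -0.57.

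Other C-type lectins showed that the rise in brain cells was not shared by all lectins of the list. Of 34 listed genes 26 had a probe and 20 were tested. In Arg1+ cells 3 were higher and 9 lower than in post-TBI monocytes (median -0.80). Over all tested genes 19.9% were called higher and 20% lower in that comparison (median -0.03). In Arg1- cells 4 were higher and 6 lower (median 0.16), beside 17% higher and 16.4% lower of all genes (median -0.02). The mannose receptor Mrc1 rose by 4.79 and 3.34, whereas the platelet receptor Clec1b differed by -4.61 and -4.30, and only 1 of 4 Arg1+ arrays had it above background, beside 3 of 4 in the Arg1- group. Clec2i fell by 3.32 and 2.32. Between the brain groups, 1 was higher and 6 were lower in Arg1+ cells, beside 2.14% and 2.9% of all genes (median -0.58 beside 0). The lower ones included Cd209a (-4.22), the galactose-type lectin Mgl2 (-2.01) and the activation marker Cd69 (-1.60). Cd209a was above background on 1 of 4 Arg1+ arrays and Cd69 on 2 of 4, so the floor limits their values. Cd209a stands on the list of dendritic cell markers as well. None of the 20 was called between the blood groups.

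Close relatives of Clec4a2 went the same way as it did, as far as they could be read. Clec4b1 differed by -1.43 in Arg1+ cells against post-TBI monocytes (limma adjusted p = 0.000161) and by -0.75 in Arg1- cells (adjusted p = 0.0213). With flagged spots kept, Clec4a1 differed by -3.24 and -2.37 and Clec4a3 by -3.53 and -3.02, all called, against -0.73 and -0.52 for Clec4a2 in that fit. These 3 relatives, and the 3 genes given above with flagged spots kept, were named after their values were seen.

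**Figure D5:**
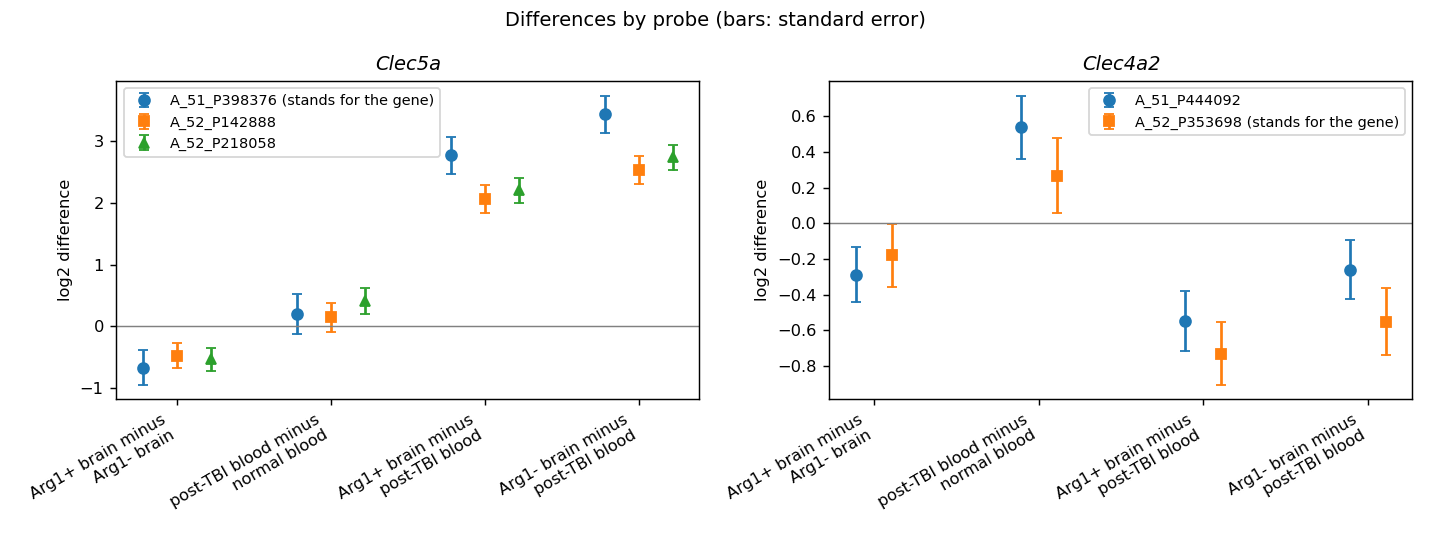
Fitted log2 difference of each usable probe of Clec5a and Clec4a2 in the 4 main comparisons (vertical axis; bars are standard errors). All Clec5a probes share a direction in each comparison; A_52_P142888 was not above background on the 6 blood arrays, so its values against blood are limited by the floor. For Clec4a2 both probes lie below 0 in the brain comparisons, from -0.73 to -0.18.

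Genes with the most similar pattern to each receptor were found by the root mean square (RMS) difference of levels over the arrays. Each gene's mean over its own usable arrays was removed first. Clec4n was closest to the complement gene C1qb (RMS 0.31 log2 units, 14 arrays), the monocyte chemokine Ccl12 (0.41) and Bcar3 (0.43), although Ccl12 and Bcar3 were not above background on any of the 6 blood arrays, where the floor sets their levels. Clec5a was closest to the kinase gene Src (0.36), Gdf3 (0.36) and the desaturase gene Fads1 (0.36). Nearest to Clec4e were Anxa9 (0.29), Mast2 (0.30) and Fkbp5 (0.31), a gene known to respond to glucocorticoids. For Clec4d, read on 10 arrays, BC051665, Grhl2 and Piwil2 came out nearest, at 0.72 to 0.76. Its mean lacks its flagged brain spots, which shifts it against genes read on all arrays. Its closest matches therefore cannot be told from these values. For Clec4a2 the smallest values, 0.15 each for Naa60, Tdrd3 and C130050O18Rik, reflect its narrow range over 11 or 12 arrays. Among the receptors other than Clec4d the closest pairs were Clec4e with Clec4a2 (1.00, 12 arrays) and Clec4e with Clec5a (1.00, 14 arrays). No pair of them was as close as their nearest genes. Pairs with Clec4d are not ranked, because of the same shift. The measure weighs the size of a change, and these values describe 14 arrays that share the contrast of brain and blood.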

How the data were processed

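Amplified RNA of sorted cells was hybridised to 14 Agilent arrays. Per the file headers, the deposited files of each array are Feature Extraction 10.7.3.1 output on an mm9 annotation: a processed signal intensity per spot, background-subtracted and not scaled between arrays, median signals, and other values such as 0 or 1 flags. A deposited table holds the authors' log2 values, whose ranks follow the median signal. The submitters' processing notes name limma, without a step.

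Each processed intensity was divided by its array's 75th percentile, ratios under 0.05 were raised to 0.05, and log2 was taken. Spots called non-uniform or outlying were set to missing. Of 41174 probes, 464 with under 2 usable spots in a group and 13098 above background on under 3 arrays were left out. The brightest of a gene's remaining probes stood for it, with names from a RefSeq table on GRCm38.p6. A probe without a gene symbol stood alone and was counted as a gene. Of the 21972 genes so counted, 12966 had a symbol, and shares of all tested genes refer to the 21972. The 21972 genes entered 1 limma 3.58.1 fit on the 4 groups in R 4.3.3 (lmFit, eBayes with an intensity trend, two-sided, 10 residual degrees of freedom), with Benjamini-Hochberg adjusted p over all genes and a threshold of 0.05. The procedure was tested on simulated data. No spot was saturated, and the number of arrays limits the precision.

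Replicate numbers do not mark pairs in the labels. Alternatives were the scaling, quantile normalization, normexp (offset 50, on median signals), the authors' values, the filter on dim probes, the floor, the choice of probe, slide or replicate as a block, the intensity trend, each array left out and flagged spots kept. Genes named are the 6 receptors, up to 4 called genes per list and comparison with the largest change, marker genes a sentence needs, and the 3 genes most like each receptor; some genes that this rule picks are not reported here. Members, lists and tests were chosen with earlier results of these data known.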

Additional observations from a re-analysis of the deposited data

Results flagged for a closer look

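On the scale of log2 levels, 4 pathway genes had 1 array that stood apart from the other 3 of its group by Dixon's criterion. Each of 40 genes was examined in both the Arg1+ and the Arg1- group, where 4 arrays were usable. Chance alone marks about 1 in 20 such groups, counted over both groups of every gene. Cxcl2 was at 4.52 in Arg1+ replicate 1 and at 2.99 to 3.18 in the other Arg1+ arrays. Il1b was at 2.00 in the same array, against 0.67 to 0.90 in the others. Inpp5d was at 2.44 in Arg1- replicate 4, against 2.20 to 2.22. Cd209a was at -2.64 in Arg1+ replicate 2, while the other Arg1+ arrays were at the floor of -4.32. No receptor gene was marked where a group had 4 usable arrays, which leaves out Clec4d, Clec12a and the Arg1- group for Clec4a2.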

How the results depend on the processing

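Of the values of single receptors under the alternatives, 733 kept direction and side of the threshold, 15 passed it where the main value had not, 18 lost it and 2 changed sign. The sign changed for Clec5a between post-TBI and normal blood without post-TBI replicate 1 (-0.15, within -0.15 to 0.59 when 1 array was left out) and for Clec4a2 between Arg1- cells and normal blood on the probe A_51_P444092 (0.28), neither called. Receptors called between Arg1+ and Arg1- cells numbered 0, but 1 with normexp and quantile normalization (Clec5a, adjusted p = 0.0489), 1 with slide as a block, 1 with flagged spots kept (both Clec4d) and 0 to 1 with 1 array left out (Clec4n, adjusted p = 0.0299 without post-TBI replicate 1 and 0.0222 without post-TBI replicate 4). Between post-TBI and normal blood they numbered 1, but 2 with quantile normalization, 2 with slide as a block, 2 with flagged spots kept, 0 with normexp (Clec4e, adjusted p = 0.0522) and 0 to 2 with 1 array left out, 2 being without normal replicate 3. Against post-TBI blood the count was 5 for Arg1+ cells in all alternatives and 4 to 5 for Arg1- cells, where Clec4a2 was also lost without the intensity trend. Called genes in all between Arg1+ and Arg1- cells were 1108 and ranged from 602 (without Arg1- replicate 3) to 1790 (without post-TBI replicate 4) with 1 array left out, 698 being without Arg1+ replicate 3. Between post-TBI and normal blood they were 33, 20 with normexp, 20 with the authors' deposited values and 2 to 60 with 1 array left out, 2 being without post-TBI replicate 3, 10 without normal replicate 2, 16 without post-TBI replicate 4, 54 without normal replicate 3 and 60 without post-TBI replicate 1. The causes were not tested.

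Replicate numbers did not pair the samples: same-numbered Arg1+ and Arg1- arrays deviated together at r from -0.46 to 0.40, and the blood groups shared only 2 numbers (r = 0.21 and 0.35). With the replicate block, 1 receptor was called between Arg1+ and Arg1- cells (Clec4n, adjusted p = 0.0438), 0 between the blood groups (Clec4e, adjusted p = 0.151), and 2 genes in all were called between the blood groups. Flags on bright spots limit Clec4d and several adaptors, and signal near background limits Clec12a and the Clec5a probe A_52_P142888 in blood.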
